A study of Mus musculus with 8 samples.

Results

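The transcripts of 10 RNA splicing regulators of muscle were followed in whole hearts of male mice, out of 45706 genes in the deposited table. They were taken by their symbols, which matched 10 rows through the GENCODE M21 annotation, and all 10 passed the filter on low counts. The genes are Rbm20, Rbm24, Rbfox1, Rbfox2, Mbnl1, Mbnl2, Celf1, Celf2, Qk and Ptbp1. RNA sequencing measured transcript levels in 8 hearts from mice aged 8 weeks. The knockout group (cKO, n = 4) had the genotype Elmsan1 fl/fl;aMHC-Cre+/-, in which the αMHC (Myh6) promoter drives Cre recombinase in cardiomyocytes and leaves Elmsan1 intact in other cell types. The floxed group (n = 2, Elmsan1 fl/fl) had no Cre, and the Cre group (n = 2, aMHC-Cre+/-) had no floxed alleles. The comparisons ask which transcripts differ once cardiomyocytes lose Elmsan1, which encodes part of a histone deacetylase complex.

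Splicing regulators of this kind bind short sequences in precursor RNA and decide whether a nearby exon is kept or skipped. In striated muscle they switch many sarcomere, calcium handling and cytoskeletal transcripts from fetal to adult isoforms around and after birth. RBM20 and RBM24 are muscle-enriched. RBFOX, MBNL and CELF proteins are small families of related proteins with wider expression, and MBNL and CELF proteins often act on the same exons in opposite directions. QK and PTBP1 are found in many cell types. The counts are sums over each gene, so they give the level of a regulator's transcripts and hold no information on isoforms or exon use.

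Libraries held 17509564 to 25833259 estimated counts. Elmsan1 (ENSMUSG00000042507) was at 12 to 15.5 CPM (counts scaled to a common library size) in cKO and 25.3 to 28.6 CPM in the 4 controls, lower in every cKO heart. The summed CPM of 10 cardiomyocyte markers was 55147 to 63813 in cKO, 65517 to 66269 in floxed and 60699 to 65298 in Cre, with none of the markers at 0. Those of the 10 endothelial markers were 1327 to 1536, 1039 to 1089 and 1025 to 1134 CPM, and those of the 10 macrophage markers 344 to 442, 222 to 254 and 234 to 279 CPM. The 10 fibroblast markers summed to 1045 to 1345, 891 to 971 and 763 to 1010 CPM. Of these markers 4 cardiomyocyte, 6 endothelial, 4 fibroblast and 7 macrophage genes were called higher in cKO against controls, and 3 cardiomyocyte genes and 1 endothelial gene lower. Among the cardiomyocyte markers Pln was at -1.07 and Tnni3 at 0.69 on the log2 scale. The 10 neural and Schwann cell markers summed to 15.6 to 25.3 CPM in cKO and 11.9 to 13.97 CPM in controls. The 10 skeletal muscle markers summed to 347 to 1849 CPM in cKO and 139 to 486 CPM in controls. Nearly all of that sum was Acta1, which the heart also expresses, at a mean of 1088 CPM in cKO and 249 CPM in controls. The other 3 tested markers had means under 3 CPM in cKO and in controls. The 6 others did not pass the filter, and Myh4 and Pax7 were at 0 in every group. The part of these markers in the results below was not tested. In RNA from whole hearts, fewer cells of a type and less RNA per cell cannot be told apart.

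Of the 10 splicing regulators, 9 were lower and 1, Ptbp1, was higher in cKO hearts than in the controls, floxed and Cre averaged with equal weight (edgeR's quasi-likelihood test, adjusted p under 0.05 over all 15289 genes tested). The background is wide, since 26.5% of all tested genes were called lower and 25.6% higher in this contrast. Scaling by library size alone moved that split to 19.5% lower and 31.1% higher. The median log2 fold change of the 10 genes was -0.77, against 0.04 over all tested genes. The 10 genes were chosen with earlier results of these data known, so their counts and median only describe them beside the background. Qk and Rbfox1 fell the most, 2.30-fold and 2.17-fold, while Rbm20 and Mbnl1 fell the least and held their calls in 9 of 19 alternative fits. For 8 of the 9 lower genes, every cKO heart was below every control heart. The exception was Rbm20. Such a complete separation towards lower values was found in 25.9% of all tested genes, and towards higher values in 23.4%.

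**Figure D1:**
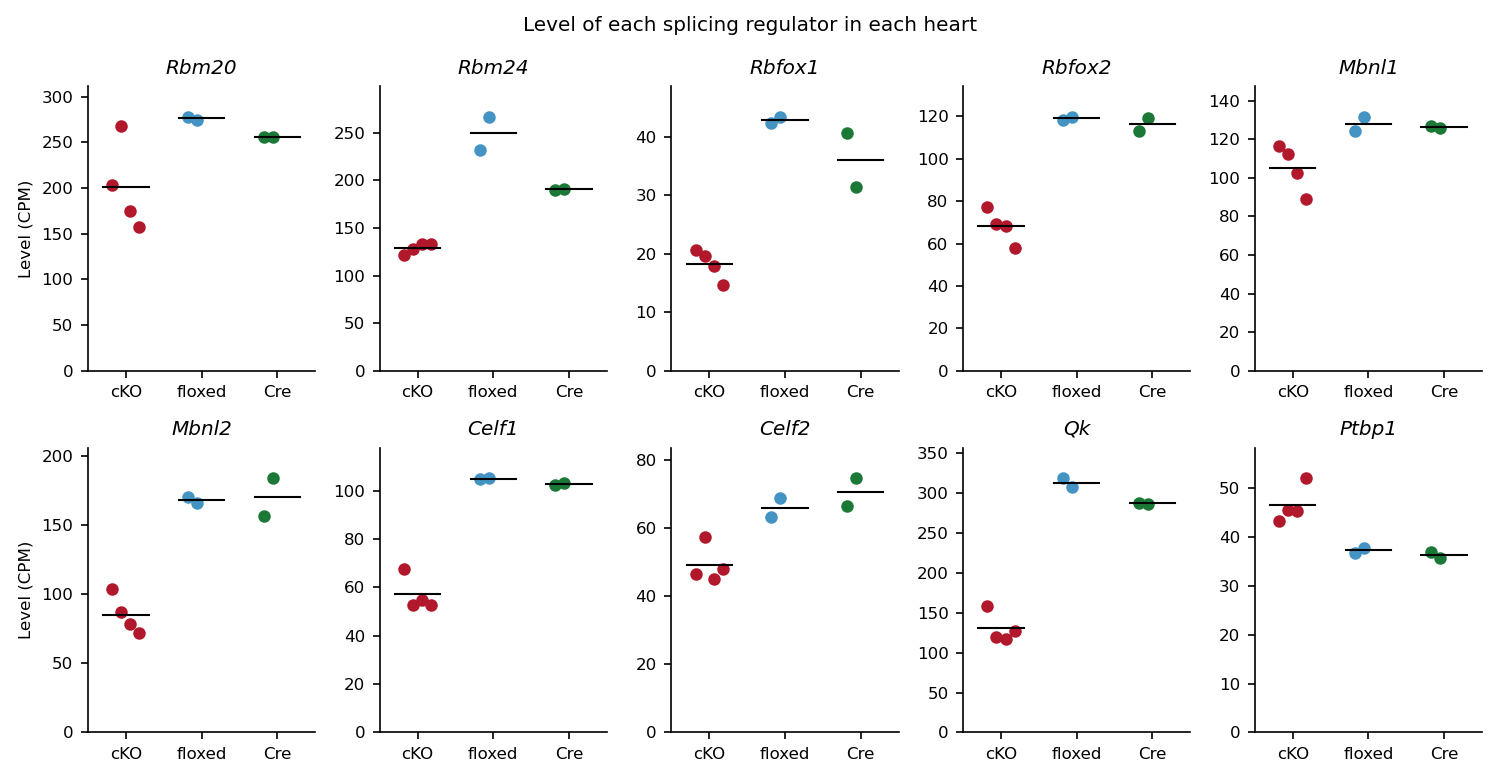
Level of each of the 10 splicing regulators (CPM, axes from 0) in the cKO (n = 4), floxed (n = 2) and Cre (n = 2) hearts, with 1 point per heart and a line at the group mean. Points of cKO lie below all control points for 8 genes and above them for Ptbp1, and for Rbm20 1 cKO heart, at 268 CPM, lies among the controls.

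Short stretches of upstream sequence are shown, of 2 regulators that fell, Rbm24 and Mbnl2, and of the 1 that rose, so that members with opposite changes can be compared. They are the 250 bases before the transcription start in RefSeq (GRCm38.p6), 5′ to 3′ on the gene's own strand, at chr13:46418050-46418299 for Rbm24, chr14:120275419-120275668 for Mbnl2 and chr10:79854182-79854431 for Ptbp1, all on the plus strand. Capitals mark matches, on either strand, to the GC box GGGCGG, the CCAAT box CCAAT, the E-box CANNTG, the GATA site AGATAA and the TATA box TATAAA. No matches overlapped each other.
Rbm24: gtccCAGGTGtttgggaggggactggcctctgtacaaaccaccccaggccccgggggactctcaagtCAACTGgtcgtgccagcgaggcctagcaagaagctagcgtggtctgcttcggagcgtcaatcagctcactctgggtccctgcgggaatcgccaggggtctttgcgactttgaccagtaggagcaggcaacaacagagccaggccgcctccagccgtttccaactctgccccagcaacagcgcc
Mbnl2: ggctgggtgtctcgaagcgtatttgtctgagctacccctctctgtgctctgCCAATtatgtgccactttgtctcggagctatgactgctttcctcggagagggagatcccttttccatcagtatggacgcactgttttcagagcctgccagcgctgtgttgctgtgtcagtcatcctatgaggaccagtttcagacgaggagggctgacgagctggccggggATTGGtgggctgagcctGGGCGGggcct
Ptbp1: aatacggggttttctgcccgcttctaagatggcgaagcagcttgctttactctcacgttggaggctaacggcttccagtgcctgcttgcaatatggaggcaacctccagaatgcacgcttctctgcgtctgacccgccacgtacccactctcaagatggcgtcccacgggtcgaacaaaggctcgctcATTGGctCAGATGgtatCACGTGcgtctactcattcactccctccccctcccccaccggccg

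The Rbm24 stretch held 2 E-boxes, the Mbnl2 stretch 2 CCAAT boxes and 1 GC box, and the Ptbp1 stretch 2 E-boxes and 1 CCAAT box. An E-box was found in 66.2% of all 32851 such stretches in the RefSeq table, a CCAAT box in 33.8% and a GC box in 32.7%. The GATA site (9.99% of all stretches) and the TATA box (12.4%) matched in none of the 3. GC content was 62.4% for Rbm24, 57.2% for Mbnl2 and 57.6% for Ptbp1, and the median over all stretches was 52.4%. The table held entries for 8 of the 10 genes, and some stretches not shown were unlike these 3. That of Qk had a GC content of 84.8% and 5 GC boxes, and the first of Mbnl1 38.0% and 2 TATA boxes. For Rbm24 the RefSeq start lies upstream of the GENCODE M21 start. A match of letters is a description and does not show that a factor binds there.

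Rbm20 (ENSMUSG00000043639, GRCm38 chromosome 19, 53677306 to 53867080, plus strand) encodes the repressor of titin exons whose mutation causes dilated cardiomyopathy in humans. Its transcript was at 203, 268, 175 and 158 CPM in cKO replicates 1 to 4, at 278 and 274 CPM in floxed, and at 256.2 and 256.1 CPM in Cre. The other 3 cKO hearts were below all controls, and the heart at 268 CPM was above both Cre hearts. Rbm20 fell 1.32-fold (log2 fold change -0.40, SE 0.15; edgeR adjusted p = 0.0398). Against each control group alone it was not called, with -0.46 (adjusted p = 0.0585, edgeR) against floxed and -0.35 (adjusted p = 0.138, edgeR) against Cre.

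The spread of Rbm20 among cKO hearts, a coefficient of variation of 24.0%, was the widest of the 10 genes, and that among the 4 controls was 4.39%. Without cKO replicate 2 the fall in cKO against controls was -0.57 (edgeR adjusted p = 0.00206). It was then also called against floxed (-0.62, edgeR adjusted p = 0.00401) and against Cre (-0.51, edgeR adjusted p = 0.0099). That library had 29.3% of its counts on mitochondrial genes, against 22.1% to 22.6% in the other cKO libraries and 25.5% to 29.1% in the controls. The part of this share in the Rbm20 value was not tested. Leaving out any other library ended the call, with edgeR adjusted p between 0.0656 and 0.113. Upper-quartile scaling, library size alone and the replicate block ended it too.

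Rbm24 (ENSMUSG00000038132, chromosome 13, 46418434 to 46431095, plus strand) encodes an RNA-binding protein that promotes inclusion of muscle exons and is needed for sarcomere assembly in the mouse heart. Its level was 122, 128, 133.02 and 133.2 CPM in cKO, 232 and 267 CPM in floxed, and 190.3 and 191 CPM in Cre. The 3 genotypes did not overlap, with cKO lowest, Cre between and floxed highest. Rbfox1, Celf1 and Qk showed the same order without overlap, but none of them was called in Cre against floxed. For Celf1 the Cre hearts reached 103 CPM and the floxed hearts began at 104.7 CPM. How many of all tested genes showed that order was not counted, so it is not read as a trait of these genes. The cKO level was 1.69-fold below controls (log2 fold change -0.76, SE 0.09; edgeR adjusted p = 5.73e-05). The fall was -0.95 (SE 0.10) against floxed and -0.56 (SE 0.10) against Cre, both called. The difference between the 2 control groups themselves, Cre against floxed, was -0.39 (SE 0.12; unadjusted p = 0.00792, edgeR adjusted p = 0.959). Of the 15289 tested genes, 526 had an unadjusted p under 0.05 in that contrast, so the order of the 2 control groups for Rbm24 does not stand out after adjustment.

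Rbfox1 and Rbfox2 encode related proteins that bind UGCAUG in introns beside regulated exons. Rbfox1 (ENSMUSG00000008658, chromosome 16, 5885355 to 7411526, plus strand) spans 1526 kb and is expressed mainly in neurons and striated muscle. It was at 20.7, 19.6, 17.9 and 14.6 CPM in cKO, 42.4 and 43.5 CPM in floxed, and 40.7 and 31.5 CPM in Cre. The highest cKO heart was well under the lowest control, a Cre heart at 31.5 CPM. Rbfox1 fell 2.17-fold (log2 fold change -1.12, SE 0.12; edgeR adjusted p = 5.49e-05).

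Rbfox2 (ENSMUSG00000033565, chromosome 15, 77078990 to 77307004, minus strand) is the more widely expressed of the pair. It was at 77.3, 69.4, 68.5 and 57.9 CPM in cKO, 118 and 119.9 CPM in floxed, and 113 and 119.3 CPM in Cre. Controls lay close together and all cKO hearts were below them. Rbfox2 fell 1.72-fold (log2 fold change -0.79, SE 0.10; edgeR adjusted p = 9.49e-05). The ratio of Rbfox1 to Rbfox2 CPM was 0.252 to 0.283 in cKO, with floxed hearts at 0.359 and 0.363 and Cre hearts at 0.264 and 0.36. One Cre heart thus had a ratio within the cKO range.

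Mbnl1 and Mbnl2 encode muscleblind proteins, which favour adult splice patterns and are trapped on expanded repeat RNA in human myotonic dystrophy. Mbnl2 (ENSMUSG00000022139, chromosome 14, 120275669 to 120431697, plus strand) was at 104, 87.0, 78.3 and 71.9 CPM in cKO, 170.2 and 166 CPM in floxed, and 157 and 184 CPM in Cre. The cKO hearts were all far below the controls, a fall of 1.98-fold (log2 fold change -0.99, SE 0.12; edgeR adjusted p = 7.98e-05). Mbnl1 (ENSMUSG00000027763, chromosome 3, 60472830 to 60629750, plus strand) was at 117, 113, 102 and 89.2 CPM in cKO, 124 and 132 CPM in floxed, and 127 and 126 CPM in Cre. The groups did not overlap, but the gap between the highest cKO heart and the lowest control was small. Mbnl1 fell 1.21-fold (log2 fold change -0.27, SE 0.10; edgeR adjusted p = 0.0364).

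The Mbnl1 call held in 2 of the 8 fits that left out a library, with edgeR adjusted p from 0.0139 to 0.105. The fits without cKO replicate 1 and without cKO replicate 2 kept it. When length and GC content of transcripts were offset it turned to 0.065 (edgeR adjusted p = 0.518), whereas Mbnl2 stayed called at -0.73. Against floxed alone (-0.28, edgeR adjusted p = 0.0779) and Cre alone (-0.27, edgeR adjusted p = 0.0949) Mbnl1 was not called. The ratio of Mbnl1 to Mbnl2 CPM was 1.13, 1.29, 1.31 and 1.24 in cKO hearts, 0.729 and 0.796 in the floxed hearts, and 0.811 and 0.686 in the Cre hearts. It was above 1 in all 4 cKO hearts and below 1 in all 4 controls. The longest transcripts of the pair are 5655 and 5561 bases long, with a GC content of 39.7% for Mbnl1 and 49.3% for Mbnl2.

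**Figure D2:**
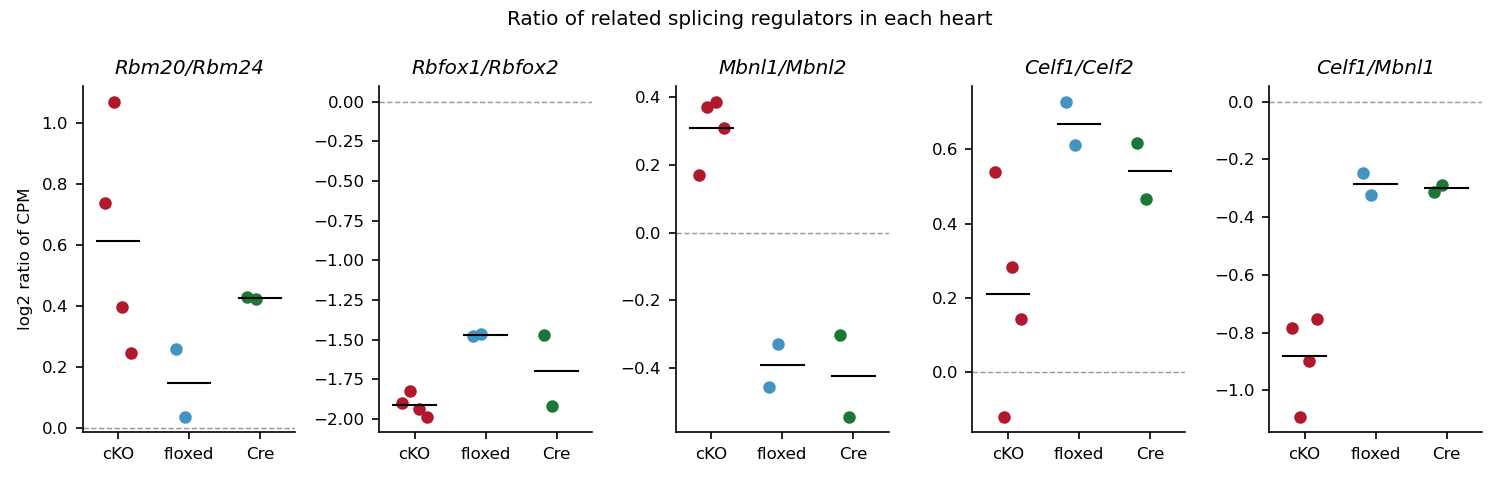
The log2 ratio of CPM for 5 pairs of related regulators in each heart (points) with the group mean (line), and a dashed line at equal CPM, each panel with its own axis range. Mbnl1 to Mbnl2 and Celf1 to Mbnl1 separate the 4 cKO hearts from all controls, and the other 3 ratios overlap between cKO and controls. How many pairs of other genes separate likewise was not counted.

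CELF proteins bind GU-rich RNA, and their levels fall after birth in the mouse heart while MBNL activity rises. Celf1 (ENSMUSG00000005506, chromosome 2, 90940382 to 91019497, plus strand) also destabilises target messages. It was at 67.8, 52.8, 54.9 and 52.9 CPM in cKO, 104.7 and 105.3 CPM in floxed, and 102 and 103 CPM in Cre. The 4 controls were nearly equal, and every cKO heart was far below them. Celf1 fell 1.82-fold (log2 fold change -0.86, SE 0.10; edgeR adjusted p = 5.91e-05), and by 0.41 on the log2 scale with the length and GC offset, still called.

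Celf2 (ENSMUSG00000002107, chromosome 2, 6539694 to 7509563, minus strand) was at 46.6, 57.4, 45.1 and 47.9 CPM in cKO, 63.2 and 68.9 CPM in floxed, and 66.6 and 74.8 CPM in Cre. All cKO hearts were below all controls, with cKO replicate 2 nearest to them. Celf2 fell 1.39-fold (log2 fold change -0.47, SE 0.10; edgeR adjusted p = 0.00204). With the length and GC offset it was at 0.028 (edgeR adjusted p = 0.844). Its longest transcript, 8856 bases, is the longest of the 10 genes.

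The ratio of Celf1 to Mbnl1 CPM was 0.581, 0.469, 0.536 and 0.594 in cKO hearts, 0.844 and 0.799 in the floxed hearts, and 0.805 and 0.82 in the Cre hearts, again with no overlap. The ratio of Celf1 to Celf2 CPM was 0.921 to 1.45 in cKO and 1.38 to 1.66 in controls, with cKO replicate 1 inside the control range. Rbm20 to Rbm24 gave 1.19 to 2.10 in cKO and 1.03 to 1.35 in controls, also overlapping. How often ratios of other gene pairs separate cKO hearts from controls was not counted.

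Qk (ENSMUSG00000062078, chromosome 17, 10202601 to 10319854, minus strand) encodes quaking, a splicing regulator of muscle, glia and vessels. It was at 158, 120.3, 117 and 127 CPM in cKO, 319 and 307 CPM in floxed, and 288 and 286 CPM in Cre. The highest cKO heart was far below the lowest control, and floxed hearts were above Cre hearts. The fall of 2.30-fold was the largest of the 10 genes (log2 fold change -1.20, SE 0.11; edgeR adjusted p = 2.34e-05), and by p value it ranked 169 among the 15289 genes tested. It was -1.26 against floxed and -1.14 against Cre, and -0.71 in cKO against controls with the length and GC offset, all called.

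Ptbp1 (ENSMUSG00000006498, chromosome 10, 79854427 to 79864771, plus strand) encodes the polypyrimidine tract binding protein, a repressor of tissue-specific exons whose level falls as muscle and neurons mature. It was at 43.3, 45.5, 45.3 and 52.1 CPM in cKO, 36.7 and 37.8 CPM in floxed, and 36.9 and 35.7 CPM in Cre. All cKO hearts were above all controls, a rise of 1.27-fold (log2 fold change 0.34, SE 0.08; edgeR adjusted p = 0.00608). With the replicate block it was 0.27 (edgeR adjusted p = 0.0619). Its estimated counts had decimals in all 8 libraries, and it overlaps annotated genes on both strands (Plppr3 among them), so its level is uncertain. Celf2 had decimals of 0.01 or more in 2 libraries and the other 8 genes in none. Annotated genes also overlap Rbm20, Rbfox1, Rbfox2, Mbnl1, Mbnl2 and Celf2, and none overlap Rbm24, Celf1 or Qk.

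**Figure D3:**
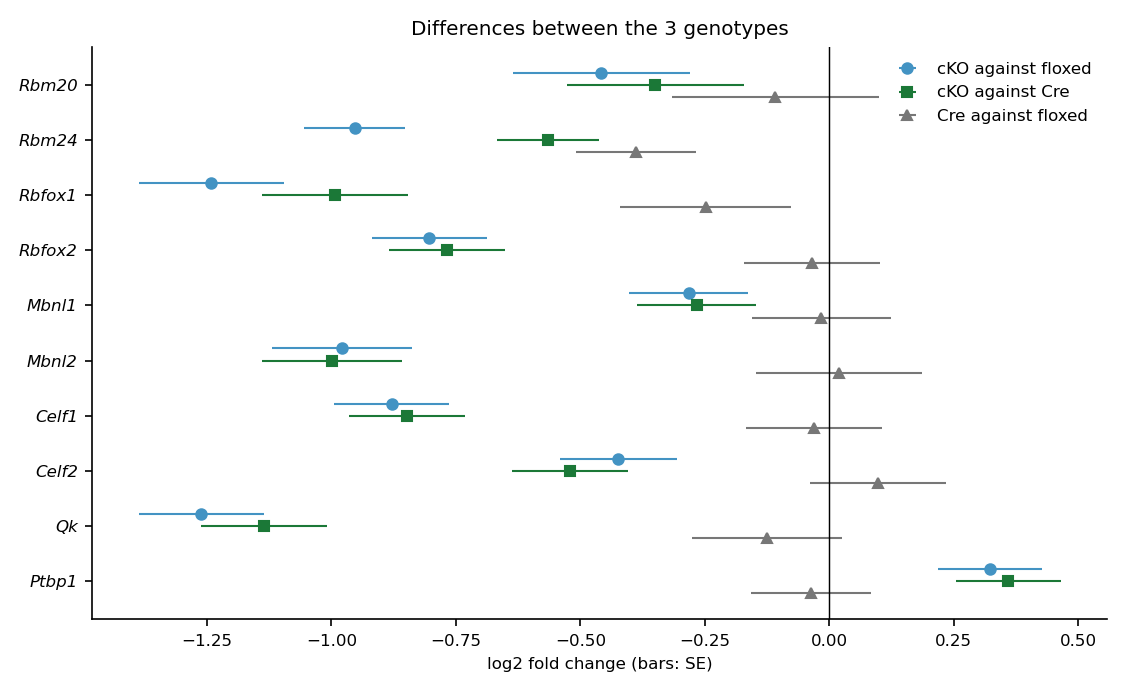
Log2 fold change (points) and SE (bars) of the 10 genes in 3 contrasts: cKO with floxed, cKO with Cre, and Cre with floxed as the reference. The first 2 contrasts lie on the same side of 0 for every gene, and they share the 4 cKO hearts. Cre against floxed runs from -0.39 for Rbm24 to 0.10 for Celf2.

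Against each control group alone, 7 of the 10 genes were called lower and Ptbp1 was called higher, and Rbm20 and Mbnl1 were not called. The Ptbp1 call held in 14 of 19 alternatives against floxed and 15 against Cre. It was lost in both with the length and GC offset (edgeR adjusted p = 0.0835 and 0.0716) and the replicate block (edgeR adjusted p = 0.139 and 0.0941). Leaving out either heart of the control group compared also ended it, as did no filter against floxed (edgeR adjusted p = 0.0627). Celf2 was called in 13 alternatives against floxed and 17 against Cre. Against floxed its call was lost with upper-quartile scaling (edgeR adjusted p = 0.056) and library size alone (edgeR adjusted p = 0.0616). The offset, the replicate block and leaving out either floxed heart ended that call too. Against Cre the offset and leaving out Cre replicate 2 ended the Celf2 call. Of all tested genes 42.9% were called against floxed (23.1% lower, 19.8% higher), and 42.4% against Cre (22.8% lower, 19.6% higher). The 2 comparisons share the cKO hearts and are therefore not independent. Rbfox1 was at -1.24 against floxed and -0.99 against Cre, Mbnl2 at -0.98 and -0.998, Celf1 at -0.88 and -0.85, and Rbfox2 at -0.80 and -0.77. Celf2 was at -0.42 and -0.52, and Ptbp1 at 0.32 and 0.36. Between the 2 control groups none of the 10 genes was called by edgeR, DESeq2 or limma voom, and 1, Rbm24, had an unadjusted p under 0.05. In that contrast 15 of all tested genes were called (0.0981%), 0.0916% lower and 0.00654% higher.

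Per kilobase of longest transcript, the controls ranked Rbm24 first with 71.3 ± 11.97 CPM per kb (SD, n = 4), then Rbm20 with 54.4 ± 2.39. Qk followed with 35.1 ± 1.85, Mbnl2 with 30.4 ± 2.05 and Mbnl1 with 22.5 ± 0.576 CPM per kb. Below them were Rbfox2 with 17.03 ± 0.443, Celf1 with 13.2 ± 0.176, Rbfox1 with 12.9 ± 1.79, Ptbp1 with 11.6 ± 0.273 and Celf2 with 7.72 ± 0.55. Celf1 and Rbfox1, and Rbfox1 and Ptbp1, were closer than their spread. In cKO the muscle-enriched pair stayed first, Rbm24 with 41.8 ± 1.77 and Rbm20 with 41.1 ± 9.89 CPM per kb, which do not differ beyond their spread. Mbnl1 followed at 18.6 ± 2.17, with a spread that overlapped those of Mbnl2 (15.3 ± 2.47) and Qk (15.3 ± 2.19). Mbnl2, Qk and Ptbp1 (14.7 ± 1.20) lay within each other's spread. Rbfox2 (9.88 ± 1.15), Celf1 (7.27 ± 0.913), Rbfox1 (5.95 ± 0.870) and Celf2 (5.56 ± 0.625) were lowest, the last 2 within their spread. Use of shorter transcripts would shift these levels between genes.

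In cKO hearts Rbm24 varied least among the falling genes, with a coefficient of variation of 4.23%, and the others between 11.2% and 24.0%. By their profiles over the 8 hearts, Rbfox2 and Celf1 were the closest pair of the 10, with a root-mean-square distance of 0.0846 on the log2 scale. Among 13159 other genes of at least 1 CPM, the profiles nearest to that of Rbm20 were Camk2a (0.0585), Arhgap21 (0.0769) and Zfp292 (0.0787). Those nearest to Qk were Rnf150 (0.0616), Osbpl1a (0.0756) and Sspn (0.0783), and to Ptbp1 Cdc37 (0.0287), Leprot (0.0365) and Rbfa (0.037). The median distance of all compared genes was 0.399 from Rbm20, 0.654 from Qk and 0.34 from Ptbp1.

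The longest transcripts of the 10 genes run from 3061 bases in Rbfox1 to 8856 in Celf2. With an offset that removes the trend with length and GC content in each library, 7 of the 10 genes were called lower and 1 higher. The background was then 24.0% lower and 21.3% higher. Their median moved from -0.77 to -0.47. Rbm24 (-0.72), Rbfox1 (-0.98), Rbfox2 (-0.51) and Rbm20 (-0.42) stayed called with Mbnl2, Celf1 and Qk, Ptbp1 stayed higher (0.24), and Mbnl1 and Celf2 were no longer called.

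**Figure D4:**
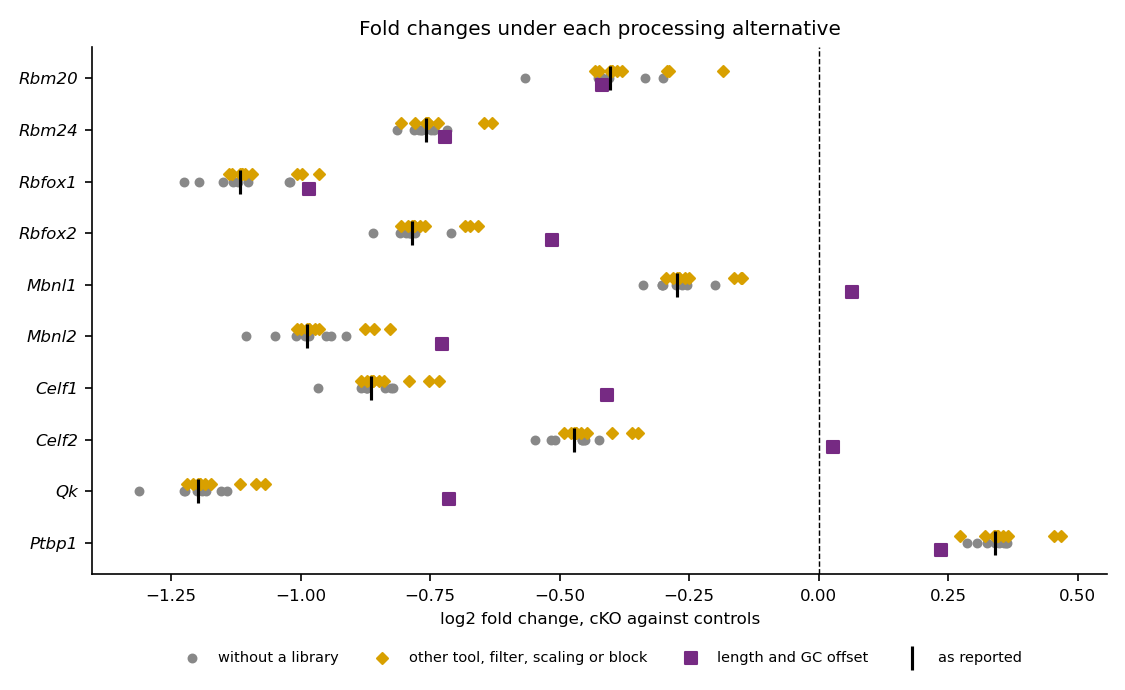
Log2 fold change of each gene in cKO against controls as reported (black bar), without 1 library (grey), with another tool, filter, scaling or the replicate block (yellow), and with the length and GC offset (purple). Mbnl1 and Celf2 cross 0 with the offset, to 0.065 and 0.028, and the other 8 genes keep their direction in all these settings.

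Lists of other splicing genes were counted in cKO against controls, beside 25.6% of all tested genes called higher and 26.5% lower. No test compared the lists. SR proteins bind exonic enhancers, and the SRPK and CLK kinases phosphorylate them. Of 20 listed genes of this class 19 were tested, 12 were higher and 2 lower in cKO against controls, with a median log2 fold change of 0.49. All 4 CLK kinases rose. Clk1 went from 70.3 ± 2.93 to 143 ± 29.8 CPM (SD over 4 hearts each; log2 fold change 1.03, SE 0.14; edgeR adjusted p = 0.000137) and Clk4 from 30.5 ± 2.71 to 61.1 ± 11.9 CPM (1.00, SE 0.13; edgeR adjusted p = 0.000128). Srsf9 (0.76, SE 0.11) and Srsf11 (0.72, SE 0.11) also rose, while Srsf1 (-0.29, edgeR adjusted p = 0.0317) and Srpk2 (-0.26, edgeR adjusted p = 0.0464) fell. With the offset 12 were higher and none lower, and without floxed replicate 2, 9 higher and none lower. The direction of the list's median was the same under every scaling.

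The hnRNP proteins coat nascent RNA and mostly repress exons, as PTBP1 does, which is itself hnRNP I. Of 24 such genes, none of them among the 10 regulators, 11 were lower and 1 higher, with a median of -0.17. Hnrnpul2 (log2 fold change -0.72, SE 0.10) and Hnrnpul1 (-0.67, SE 0.10) fell the most, followed by Syncrip (-0.57, SE 0.10) and Hnrnpr (-0.47, SE 0.09), and Hnrnpu rose (0.33, edgeR adjusted p = 0.00982). With the offset 6 were lower and 3 higher, and Syncrip (-0.083, edgeR adjusted p = 0.402) and Hnrnpr (-0.072, edgeR adjusted p = 0.552) were no longer called. Scaling by library size alone gave 5 lower and 3 higher.

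Of 40 core spliceosome genes 15 were higher (37.5%, against 25.6% of all tested genes) and 11 lower (27.5%, against 26.5%). The 4 with the smallest p were Snrpd2 (log2 fold change 1.04, SE 0.12) and Snrpf (0.81, SE 0.10), which encode Sm proteins, Sf3b5 (0.82, SE 0.09), an SF3b subunit, and Prpf8 (-0.98, SE 0.10), the large scaffold of the catalytic core. Of the other Sm genes listed, Snrpb (0.36), Snrpd1 (0.72), Snrpe (0.74) and Snrpg (0.81) were called higher. Snrpd3 (0.20, edgeR adjusted p = 0.0527) was not called. The SF3b genes were mixed, with Sf3b1 (0.65) and Sf3b6 (0.41) called higher and Sf3b4 (0.11) not called. Sf3b3 (-0.52, edgeR adjusted p = 0.000494) and Sf3b2 (-0.25, edgeR adjusted p = 0.0348) were lower. With the offset Snrpd3 was called higher (0.30, edgeR adjusted p = 0.00613) and Snrpb was not called (0.14, edgeR adjusted p = 0.150). Snrpd2 (0.71), Snrpf (0.47), Sf3b5 (1.02) and Prpf8 (-0.68) stayed called with it, while the list's median went from 0.12 to -0.035. Among 30 other tissue splicing regulators 22 were tested, 4 were higher and 2 lower, and 16 were not called. Fxr1, which encodes an RNA-binding protein of striated muscle, fell from 165 ± 12.1 to 104 ± 9.82 CPM (log2 fold change -0.67, SE 0.10; edgeR adjusted p = 0.000208), and Srrm4, known as a regulator of neuronal microexons, fell from 16.5 ± 3.13 to 9.44 ± 1.36 CPM (-0.81, SE 0.16; edgeR adjusted p = 0.0015). Rbm5 (0.61, SE 0.11) and Tia1 (0.50, SE 0.10) rose. The median of that list, -0.061, turned positive under upper-quartile scaling (0.051), library size alone (0.072), no filter (0.18), without cKO replicate 2 (0.014), without floxed replicate 2 (0.032) and the offset (0.29), the last with 9 higher and 4 lower.

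**Figure D5:**
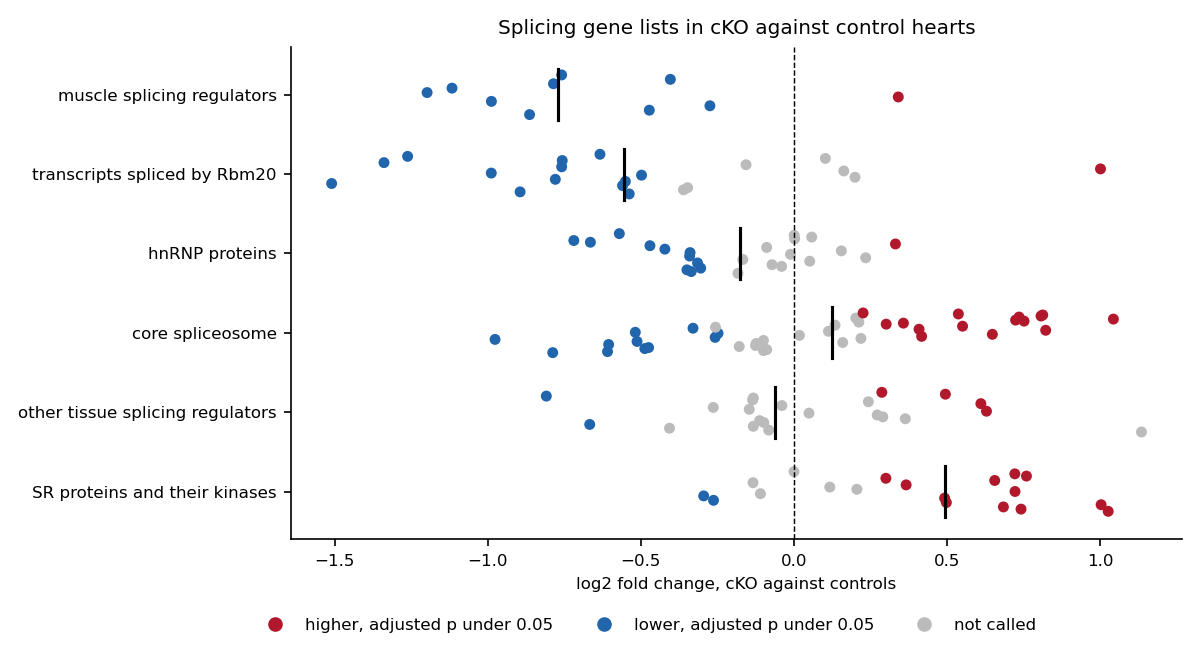
Log2 fold change in cKO against controls for each tested gene of 6 lists (points), with called genes in red (higher) and blue (lower), others in grey, and the list's median as a black line. Medians run from -0.77 for the 10 muscle regulators to 0.49 for SR proteins and their kinases.

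Transcripts whose splicing is known to depend on RBM20 were also looked at, as whole-gene levels only. Of 20 such genes 13 were lower and 1, Pdlim3, higher in cKO against controls, with a median of -0.56. Ryr2, the calcium release channel, fell from 1494 ± 108 CPM in controls to 589 ± 71.9 CPM (SD over 4 hearts; log2 fold change -1.34, SE 0.11). Fhod3 (-1.51, SE 0.13), a formin of the sarcomere, Trdn (-1.26, SE 0.09), a partner of the release channel, and Nexn (-0.99, SE 0.10), a Z-disc protein, fell as well. The level of a transcript does not show how it was spliced. With the offset 11 were lower and 1 higher, and the median was -0.34.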

How the data were processed

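Per the labels' protocols, TRIzol was used for heart RNA and a NEBNext Ultra kit for the libraries. The values the authors deposited, in 1 table by Ensembl gene, are estimated counts per gene, read as such because 23.7% to 28.0% of the nonzero values in a library had decimals. STAR 2.5.1b, DESeq2, mm10 and GRCm38 appear in the submitters' processing notes. Which counting program, annotation and strand setting were used is not given in the sources used here, and reads of overlapping or antisense genes cannot be told apart. Columns were assigned by library name.

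Counts were rounded, filtered with filterByExpr (15289 genes left) and scaled with TMM factors. All 8 libraries were fitted with 3 group means (5 residual degrees of freedom) in edgeR 4.0.16 (R 4.3.3) by the quasi-likelihood test with robust dispersion. P values were adjusted by Benjamini-Hochberg over all tested genes, and a gene was called at an adjusted p under 0.05. Controls are the floxed and Cre groups with equal weight. SE was derived from the test statistic. CPM uses TMM factors and is given as mean ± SD. Symbols, positions and longest transcripts come from GENCODE M21 (73 tested genes had no symbol). Nothing says how the hearts were sampled beyond their labels, so p values reflect only variation among these 8.

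Alternatives were other scalings, DESeq2 1.42.0, limma 3.58.1 voom, other filters, a replicate block, no robust fit, controls as 1 group, only the groups compared, a minimum fold, leaving out each library, and an offset per library from smooth functions of transcript length and GC content (mgcv 1.9.3; 99.5% of tested genes had values). The procedure was also run on simulated counts in which few genes changed, unlike here, so that run cannot judge the scaling. Figures were drawn with matplotlib 3.10.9. The 10 genes, the gene lists and the offset were chosen with earlier results of these data known. From each list up to 4 called genes with the smallest p were named, with Elmsan1, the 10 regulators and the 3 nearest profiles to Rbm20 and to the largest rise and fall. Clk2, Clk3, Srsf1, Srpk2, Hnrnpu, Pdlim3, Acta1, Pln and Tnni3 were named after their values were seen. So were Sf3b1, Sf3b2, Sf3b3, Sf3b4, Sf3b6, Snrpb, Snrpd1, Snrpd3, Snrpe and Snrpg.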

Additional observations from a re-analysis of the deposited data

Results flagged for a closer look

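Celf1 in cKO replicate 1, at 67.8 CPM, stood apart from the other 3 cKO hearts at 52.8 to 54.9 CPM by the Dixon test, and was still below every control. Elmsan1 in cKO replicate 4, at 11.996 CPM, stood apart from the other cKO hearts at 15.2 to 15.5 CPM. Chance flags about 1 in 20 groups, and 11 were examined.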

How the results depend on the processing

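In cKO against controls Rbm24, Rbfox1, Rbfox2, Mbnl2, Celf1 and Qk were called lower in all 19 alternatives that set no minimum fold, Ptbp1 higher in 18, Celf2 lower in 18, and Rbm20 and Mbnl1 in 9 each. With the length and GC offset Mbnl1 (0.065) and Celf2 (0.028) changed sign, as did Celf2 against floxed (0.055) and against Cre (0.0014) and Mbnl1, not called there, against floxed (0.029) and against Cre (0.10). The cause was not tested. Upper-quartile scaling and library size alone moved the median of all genes in cKO against controls from 0.04 to 0.16 and 0.17. They ended the calls of Rbm20 and Mbnl1 there, and that of Celf2 against floxed. With an absolute log2 fold change of at least 1 as well, the genes called were 2074 in cKO against controls, 1956 against floxed and 1824 against Cre, and of the 10 regulators 2, 2 and 1, fewer by construction. In Cre against floxed the 15 genes called became 57 by DESeq2, 31 with no filter, 84 with the replicate block and 32 with only the groups compared. Leaving out 1 library gave 6536 to 8209 genes (8 to 10 regulators) in cKO against controls, 3600 to 7037 (6 to 9) against floxed, 3929 to 6934 (6 to 9) against Cre, and 7 to 18 (0) in Cre against floxed. The lowest counts came without floxed replicate 1 (3600) and 2 (3624) and without Cre replicate 2 (3929), where a control group is left with 1 heart whose spread is assumed like that of the others. In Cre against floxed, 7 genes were called without floxed replicate 2 and 9 without either Cre replicate. Replicate numbers 1 and 2, taken from the sample titles, occur in every group, but nothing says that they pair hearts. In the library names the 2 floxed hearts are numbered 2 and 3 instead. Hearts with the same title number correlated between -0.11 and 0.13 in their deviations from the group mean. In a group of 2 the deviations mirror each other, so floxed with Cre gave the same value, -0.045, for both numbers. Hearts with unlike numbers were not compared, so these correlations cannot decide whether hearts are paired. The replicate block, in which cKO replicates 3 and 4 share no number with a control, left 7 of the 10 regulators called in cKO against controls. Rbm20 (-0.18, edgeR adjusted p = 0.288), Mbnl1 (-0.15, edgeR adjusted p = 0.317) and Ptbp1 (0.27, edgeR adjusted p = 0.0619) were not called there. With the block 6 regulators were called against floxed, 7 against Cre and 0 in Cre against floxed. Of all tested genes it called 41.7% in cKO against controls, 34.9% against floxed, 34.6% against Cre and 0.549% in Cre against floxed. Without the block these shares were 52.1%, 42.9%, 42.4% and 0.0981%.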
